A study of Rattus norvegicus with 6 samples.

Results

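The 10 genes described here encode the contractile apparatus of smooth muscle: the actins Acta2 and Actg2, the myosin heavy chain Myh11, its regulatory light chain Myl9 and the kinase Mylk, the actin-binding proteins Tpm2, Cnn1, Tagln and Lmod1, and the intermediate filament protein Des. They were chosen as the rows of a rat testis gene table whose symbol is one of these names, and they are 10 of its 35291 rows. RNA-Seq gave 3 libraries from testes of rats with streptozotocin-induced diabetes (DM) and 3 from testes of normal rats, all of the outbred Sprague-Dawley strain. The DM rats had been fed a diet high in fat before they received a single intraperitoneal injection of streptozotocin, a toxin of pancreatic beta cells, at 35 mg/kg. The normal rats had received citrate buffer, and the methods do not say which diet they ate. Tissue was taken 8 weeks after the injection. Injected rats counted as diabetic only where their blood glucose stayed high, and effects of the toxin, the diet and high glucose cannot be told apart in these groups. The labels number the replicates but do not say whether each library came from 1 animal. Each library is called a rat below, and p-values measure the spread between these samples.

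In the testis, smooth muscle proteins are made by the peritubular myoid cells, which wrap each seminiferous tubule and squeeze sperm towards the rete testis, and by the mural cells of arteries and veins. Contraction starts when calcium and calmodulin activate myosin light chain kinase, which phosphorylates the regulatory light chain and lets myosin pull on actin, and RhoA and its kinases keep the light chain phosphorylated by restraining myosin phosphatase. Endothelin and other ligands act on these cells through G protein-coupled receptors. The genes share a transcriptional switch, serum response factor (SRF) with its cofactors of the myocardin family, which binds a DNA element called the CArG box. Peritubular myoid cells express androgen receptor, and their contractile genes are commonly used as their markers. Whole testis RNA does not separate the peritubular from the vascular source, and fewer cells of a type cannot be told apart from less RNA per cell.

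The element was looked for in the promoters. Promoter windows of RefSeq (assembly GRCr8), which run from 250 bases before to 50 bases after the gene start, matched 6 of the 10 genes (Acta2, Actg2, Cnn1, Des, Mylk and Tpm2). The CArG box was searched as CC, 6 bases with at most 1 G or C among them, and GG, a pattern that reads the same on both strands. Acta2 held 2 such boxes, and the windows of the other 5 matched genes held 0. Bases outside these windows were not searched, so a window with 0 boxes does not show that its gene lacks the element. With A and T alone in the 6 central bases, all 6 matched genes held 0 boxes, and 1.64% of all windows held at least 1. Among all 33469 windows of this length, 9.42% held at least 1 of the less strict boxes and 0.846% held at least 2. The Acta2 boxes, in capitals, are shown 5′ to 3′ on the strand of the gene because the levels of SRF and its cofactors are described below, and a match in letters does not show binding. The boxes begin 134 and 84 bases before the gene start, and the windows of 30 bases printed around them are chr1:241172618-241172647 and chr1:241172568-241172597 of GRCr8 on the minus strand.
Acta2 box 134 bases before the start: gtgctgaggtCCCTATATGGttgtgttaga
Acta2 box 84 bases before the start: tgtctttgctCCTTGTTTGGgaagcgagtg

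The deposited values are in FPKM, which scales fragment numbers by transcript length and library size, so that levels can be compared between genes per length. Sertoli cell markers, summed, stood at 398 to 481 FPKM in the 6 libraries. Reads per library are unknown. Among genes below 1 FPKM, the commonest ratio between 2 libraries gave relative depths of 0.966 to 1.09 in the DM rats and 0.894 to 1.02 in the normal rats, around a mean of 1, and normal rat 3 was the shallowest. The limma test used log2(FPKM + 0.1) and 20338 genes whose mean over the 6 rats reached 0.5 FPKM, and all 10 contractile genes were among them. On that scale a log2 fold change is DM minus normal, and it is smaller than the true change where a gene is low.

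None of the 10 contractile genes passed a limma threshold between DM and normal testes. At an unadjusted p-value below 0.05 from limma, 0 of the 10 genes were lower and 0 were higher in the DM rats, against 4.99% lower and 2.47% higher of all genes tested. When a log2 fold change of 1 or more in size was required in addition, 0 of 10 passed, against 0.846% lower and 0.398% higher of all genes. After Benjamini-Hochberg adjustment in limma, 0 of 10 passed, against 0.0246% lower and 0.00983% higher. For 1 of the 10 genes, Des, every DM rat lay below every normal rat, a pattern shown by 8.42% of all genes tested. No contractile gene had every DM rat above the normal rats, against 4.56% of all genes. The median log2 fold change of the 10 genes was -0.12, and that of all genes tested was -0.021. The sign was negative for 9 of the 10 genes and for 55.6% of all genes, but with median-ratio scaling between samples Tpm2 and Lmod1 turned slightly positive.

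**Figure D1:**
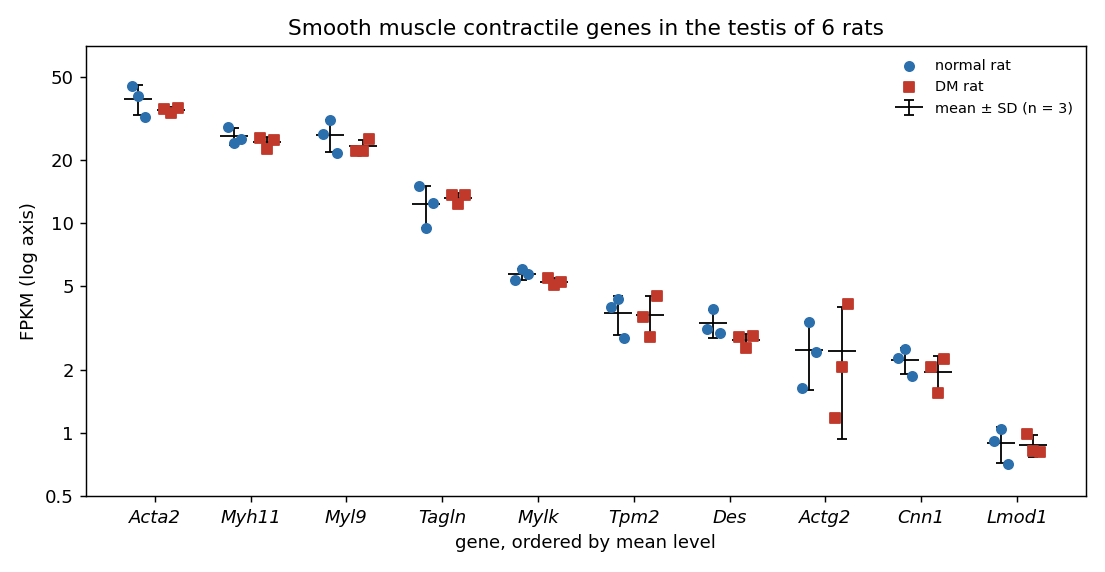
FPKM of the 10 contractile genes on a log axis in each normal rat (blue circles) and DM rat (red squares), with black bars for the mean ± SD of 3 rats. Levels span from below 1 FPKM for Lmod1 to 45.2 FPKM for Acta2, and Des is the one gene whose groups do not overlap.

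Acta2 (ENSRNOG00000058039), alpha smooth muscle actin, was the most abundant contractile transcript. It was at 35.2, 33.7 and 35.5 FPKM in the DM rats and at 45.2, 40.4 and 32.2 FPKM in the normal rats. The DM rats lay close together, whereas the normal rats held both the highest and the lowest value, so that the groups overlapped. On the log2 scale the DM rats were at -0.16 relative to the normal rats (SE 0.12, 95% interval -0.44 to 0.12, adjusted p = 0.843 from limma). Without normal rat 3, the lowest of its group, Acta2 had a log2 fold change of -0.297 and an unadjusted p-value of 0.00727, with an adjusted p-value of 0.504 from limma.

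Actg2 (ENSRNOG00000029401), gamma smooth muscle actin, is the form typical of gut and other visceral muscle. Its values were 1.18, 2.07 and 4.14 FPKM in the DM rats and 1.63, 3.40 and 2.42 FPKM in the normal rats. The lowest and the highest of the 6 values both came from DM rats. Its log2 fold change of -0.13 had an SE of 0.45, and the 95% interval from -1.19 to 0.93 was the widest of the 10 genes. Actins have nearly identical coding sequences, and how reads that match several of them were assigned is not given in the sources used here, so the split between Acta2 and Actg2 is uncertain.

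Myh11 (ENSRNOG00000057880), the smooth muscle myosin heavy chain, was at 25.5, 22.7 and 25.0 FPKM in the DM rats and at 28.7, 24.0 and 25.1 FPKM in the normal rats. Normal rat 1 was the highest, DM rat 2 was the lowest, and the other 4 values were interleaved. The log2 fold change was -0.086 (SE 0.088), and the 95% interval from -0.29 to 0.12 was the narrowest of the 10 genes.

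Myl9 (ENSRNOG00000020246), the regulatory light chain of smooth muscle myosin, was at 22.2, 22.2 and 25.3 FPKM in the DM rats and at 26.7, 30.9 and 21.6 FPKM in the normal rats. As for Acta2, normal rat 3 was the lowest of all 6 rats and the other normal rats were the highest. Its log2 fold change of -0.17 had a 95% interval from -0.49 to 0.14 (adjusted p = 0.852 from limma). Without normal rat 3, Myl9 was at a log2 fold change of -0.309 with an unadjusted p-value of 0.022 and an adjusted p-value of 0.624 from limma.

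Mylk (ENSRNOG00000002215), which encodes the light chain kinase, was at 5.48, 5.06 and 5.26 FPKM in the DM rats and at 5.35, 6.06 and 5.72 FPKM in the normal rats. The overlap came from a single pair, since DM rat 1 stood above normal rat 1. For Mylk the log2 fold change was -0.11 with a 95% interval from -0.34 to 0.11. The coefficient of variation over the 6 rats, 6.48%, was the lowest of the 10 genes.

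Among the proteins that bind the actin filament, Tpm2 (ENSRNOG00000016731), beta-tropomyosin, was at 3.57, 2.88 and 4.52 FPKM in the DM rats and at 3.98, 4.36 and 2.83 FPKM in the normal rats. The groups covered nearly the same range. Its log2 fold change was -0.025 with a 95% interval from -0.54 to 0.49.

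Cnn1 (ENSRNOG00000027736), calponin 1, which inhibits the myosin ATPase on actin and marks differentiated smooth muscle, was at 2.06, 1.55 and 2.26 FPKM in the DM rats and at 2.28, 2.52 and 1.88 FPKM in the normal rats. DM rat 2 was the lowest, and the other values were interleaved except for the 2 highest, which were normal. For Cnn1 the log2 fold change was -0.19 with a 95% interval from -0.65 to 0.27.

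Tagln (ENSRNOG00000017628), transgelin or SM22 alpha, an early marker of the smooth muscle lineage, was at 13.6, 12.3 and 13.6 FPKM in the DM rats and at 15.0, 9.45 and 12.5 FPKM in the normal rats. It was the one gene of the 10 with a positive log2 fold change, 0.12 with a 95% interval from -0.26 to 0.499. The DM values lay inside the range of the normal rats, and without normal rat 2, the lowest, the sign turned to -0.056.

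Lmod1 (ENSRNOG00000051548), leiomodin 1, which nucleates actin filaments in smooth muscle, was the least abundant. It was at 0.993, 0.821 and 0.812 FPKM in the DM rats and at 0.916, 1.05 and 0.712 FPKM in the normal rats. The DM values again lay inside the range of the normal rats. For Lmod1 the log2 fold change was -0.016 with a 95% interval from -0.59 to 0.56.

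Des (ENSRNOG00000019810), desmin, the intermediate filament that ties contractile bundles together, was at 2.86, 2.56 and 2.91 FPKM in the DM rats and at 3.13, 3.91 and 2.995 FPKM in the normal rats. All 3 DM rats lay below all 3 normal rats (exact permutation test, two-sided, p = 0.1, the smallest that 3 against 3 allows). The means were 2.78 ± 0.191 FPKM in the DM and 3.35 ± 0.496 FPKM in the normal rats (SD, n = 3 each). In the fit over all genes, Des had a log2 fold change of -0.25 (SE 0.14, 95% interval -0.59 to 0.086, adjusted p = 0.786 from limma). The gap between the groups was 0.089 FPKM, smaller than the SD of either group. Desmin is also a protein of skeletal muscle, and markers of that tissue, given below, ranged from 0 FPKM to a mean above that of Des. Their part in the values of Des was not tested.

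**Figure D2:**
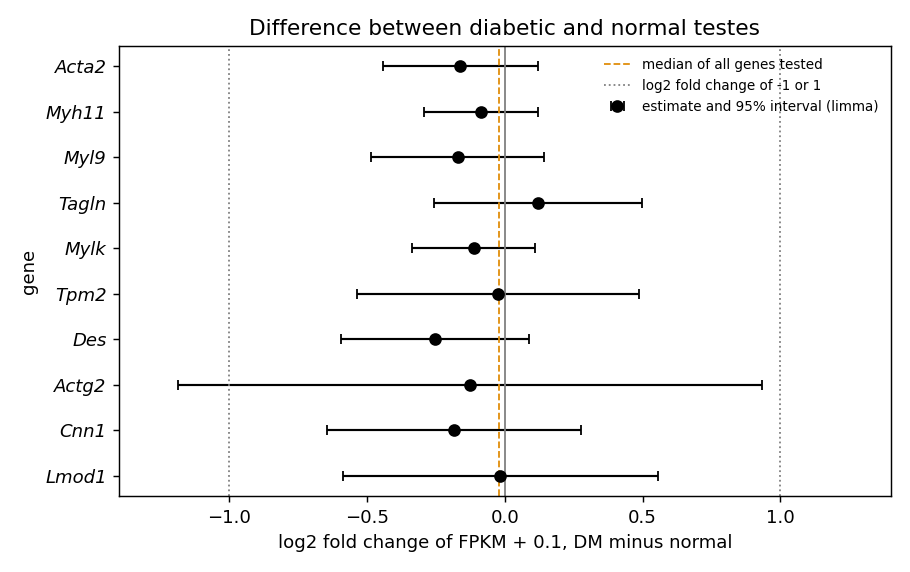
Log2 fold change of the 10 contractile genes on the log2(FPKM + 0.1) scale, DM minus normal, with 95% intervals from limma, beside the median of all genes tested (dashed) and log2 fold changes of -1 and 1 (dotted). All 10 intervals include 0, and the interval of Actg2 alone extends beyond -1.

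The intervals limit the size of a difference that these rats could hide. For 9 of the 10 genes the 95% interval lay within log2 fold changes of -1 and 1, and for 5 of them, Acta2, Myh11, Tagln, Myl9 and Mylk, it lay within -0.5 and 0.5. A p-value that misses the threshold does not show equal levels. Leaving out 1 rat moved the count of genes whose DM rats all lay below the others. It was 4 of 10 without normal rat 3 (Acta2, Cnn1, Des and Myl9), beside 15.8% of all genes, and 2 of 10 (Des and Mylk) without DM rat 1 or without normal rat 1, beside 13.3% and 14.1% of all genes.

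The order of the levels was Acta2, Myh11, Myl9, Tagln, Mylk, Tpm2, Des, Actg2, Cnn1 and Lmod1, from a mean of 37.0 FPKM over the 6 rats to 0.884 FPKM. Each of the 9 neighbouring pairs was compared within the rats by an exact sign-flip permutation test on the log2 ratio, for which 0.0312 is the smallest p-value. The order came from the means of these same rats. The values tested therefore chose the pairs and their direction, and the p-values only describe them. Acta2 exceeded Myh11 by 1.28 to 1.68 times and did so in 6 of 6 rats. Myl9 exceeded Tagln by 1.63 to 3.27 times, Tagln exceeded Mylk by 1.56 to 2.81 times, Mylk exceeded Tpm2 by 1.16 to 2.03 times and Cnn1 exceeded Lmod1 by 1.88 to 2.79 times, each in 6 of 6 rats. These 5 pairs reached the smallest p-value, which became 0.0563 after Benjamini-Hochberg adjustment over the 9 pairs. No pair stayed below 0.05 after that adjustment, whose result depends on how many pairs reach the smallest p-value. The neighbours Myh11 and Myl9, whose means of 25.2 and 24.8 FPKM were close, were in that order in 4 of 6 rats (exact permutation test, adjusted p = 0.813). The pairs Tpm2 and Des, Des and Actg2, and Actg2 and Cnn1 were not separated beyond the spread between rats, with adjusted p-values of 0.0938 to 0.738 in the same exact test.

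The rats of a group differed among themselves. The summed level of the 10 genes was 113, 106 and 119 FPKM in the DM rats and 133, 126 and 108 FPKM in the normal rats, so that normal rat 3 lay among the DM rats. Normal rat 2 held the highest value for 5 of the 10 genes and DM rat 2 and normal rat 3 held the lowest value for 4 genes each. Actg2 had the widest range over the 6 rats, 3.53 times from the lowest to the highest, and for the other genes this ratio was at most 1.63, in Cnn1. Acta2 varied by 2.70% in the DM rats and by 16.7% in the normal rats (coefficient of variation, n = 3 each), and whether the spread differed between the groups was not tested. Across the 6 rats the 45 pairs of genes had a median Pearson correlation of 0.408 on the log2 scale, and 35 of the 45 were positive. The highest was 0.887 between Tpm2 and Cnn1, and Des had 0.874 with Mylk and 0.854 with Myl9. Tagln stood apart, with positive correlations to 2 of the other 9 genes and -0.687 with Mylk. These correlations describe 6 libraries in which every gene shares the depth and scaling of the library.

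**Figure D3:**
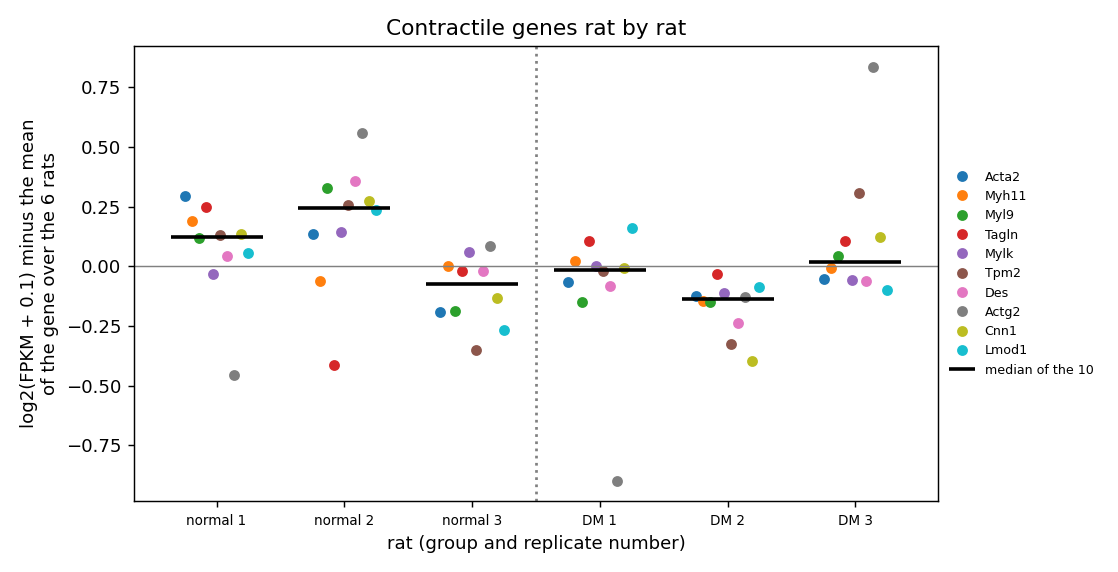
Each contractile gene in each rat, as log2(FPKM + 0.1) minus the mean of the gene over the 6 rats, with a black bar for the median of the 10 genes. The medians of normal rats 1 and 2 are the highest, at 0.12 and 0.25, and normal rat 3 lies at -0.075, between DM rat 1 at -0.013 and DM rat 2 at -0.14.

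Contractile genes were also expressed as a share of the FPKM of their family. The families include non-muscle relatives and, as in the actins and the light chain kinases, forms of striated muscle. Acta2 made up 6.27%, 5.95% and 6.94% of the 6 conventional actins in the DM rats and 8.17%, 6.97% and 6.57% in the normal rats, and Actb, cytoplasmic beta-actin, held most of the rest at 450 FPKM on average over the 6 rats. The groups overlapped (exact permutation test, p = 0.2). Myh11 made up between 49.4% and 53.0% of its family with the non-muscle heavy chains Myh9, Myh10 and Myh14 in the 6 rats. Myl9 made up 44.3% to 52.6% of the regulatory light chains with Myl12a and Myl12b. In both families the groups overlapped. Mylk made up 93.9% to 99.0% of the 4 myosin light chain kinases, Tpm2 5.36% to 8.82% of the tropomyosins and Lmod1 at most 1.71% of the leiomodins and tropomodulins, so that Mylk was nearly the whole of its family and Tpm2 and Lmod1 were small parts of theirs. Cnn1 made up 35.2%, 39.1% and 39.2% of the calponins in the DM rats and 36.6%, 36.1% and 27.4% in the normal rats, with overlapping groups.

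For Tagln and Des the groups did not overlap in these shares, which were computed after the values were seen. Like shares were not computed for other gene families, so how often groups separate in this way is unknown. Tagln made up 75.3%, 75.7% and 78.5% of the transgelins in the DM rats and 74.7%, 52.6% and 70.1% in the normal rats, so that all DM rats were higher (exact permutation test, p = 0.1). In that family Tagln2, the form of non-muscle cells, was at -0.59 on the log2 scale (unadjusted p = 0.0231 and adjusted p = 0.598 from limma). Des made up 8.20%, 7.55% and 7.55% of the sum of desmin and vimentin in the DM rats and 6.57%, 6.99% and 6.64% in the normal rats, again higher in 3 of 3 DM rats (exact permutation test, p = 0.1). Vim, vimentin, the intermediate filament of mesenchymal and Sertoli cells, was at 32.0, 31.3 and 35.6 FPKM in the DM and at 44.5, 52.1 and 42.1 FPKM in the normal rats, or -0.48 on the log2 scale (unadjusted p = 0.00134 and adjusted p = 0.286 from limma). Desmin and vimentin were thus both lower in every DM rat, and vimentin was so by the larger log2 fold change. After Benjamini-Hochberg adjustment over the 9 families, the exact p-values of Tagln and Des were 0.45. Among the counterparts in other actins, myosins, tropomyosins and related filaments, 23 genes were tested, Vim and Tagln2 were lower at an unadjusted p-value below 0.05, 0 were higher, and the median was -0.032 on the log2 scale.

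The wider machinery of smooth muscle contraction was described with lists of genes. Of 28 other cytoskeletal genes of smooth muscle, 26 were tested, 2 were lower and 0 were higher at an unadjusted p-value below 0.05 from limma, and the median log2 fold change was -0.13. The 2 genes were Flna, filamin A, which cross-links actin, at a log2 fold change of -0.27 (unadjusted p = 0.0397), and Csrp1, a cysteine-rich protein of the actin cytoskeleton, at -0.24 (unadjusted p = 0.0487). With median-ratio scaling 0 genes of this list passed, and the count was 0 without DM rat 2 or normal rat 1 and 5 without normal rat 3. The most abundant genes of the list, Ilk and Vcl, which link integrins to actin, had means of 34.9 and 21.5 FPKM and log2 fold changes of -0.087 and 0.039.

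Of the genes that control the light chain through calcium, RhoA and myosin phosphatase, 18 were tested and 0 passed in either direction, with a median log2 fold change of -0.039. Rhoa was at 46.4 ± 2.57 FPKM in the DM and 47.4 ± 2.13 FPKM in the normal rats (SD, n = 3 each). Ppp1r12a, the targeting subunit of myosin phosphatase, was at 24.1 ± 1.04 and 24.5 ± 0.623 FPKM (SD, n = 3 each). Its catalytic partner Ppp1cb was at 20.4, 21.1 and 25.1 FPKM in the DM rats and at 25.8, 24.1 and 25.6 FPKM in the normal rats, or -0.19 on the log2 scale (adjusted p = 0.729 from limma).

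Of the receptors and ligands of contraction, 10 of 18 genes were tested, 2 were lower and 1 was higher at an unadjusted p-value below 0.05. The lower genes numbered 1 or 2 and the higher genes 0 or 1 under the alternatives, with 1 lower under median-ratio scaling. The higher count was 0 with the filter at 1 FPKM and without DM rat 2 or 3 or normal rat 1 or 2. Ece1, the enzyme that cleaves pro-endothelin to active endothelin, was at 3.65, 3.66 and 3.70 FPKM in the DM rats and at 4.94, 5.29 and 4.45 FPKM in the normal rats. All DM rats were lower, as in 8.42% of all genes tested, with a log2 fold change of -0.40 (unadjusted p = 0.00691 and adjusted p = 0.462 from limma). Ptgis, prostacyclin synthase, whose product relaxes smooth muscle, had a log2 fold change of -0.38 (unadjusted p = 0.0473). Ptger3, a prostaglandin E receptor, went the other way at 0.73 (unadjusted p = 0.0412). The endothelin receptor gene Ednra, named here for its role and not by the rule for genes named, was at 2.34, 5.56 and 2.32 FPKM in the DM rats and at 2.27, 2.64 and 2.47 FPKM in the normal rats, so that DM rat 2 stood above the other 5 rats.

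Of the regulators of the shared CArG switch and of related pathways, 22 genes were tested, 1 was lower and 1 was higher at an unadjusted p-value below 0.05, and each count ran from 0 to 2 under the alternatives. The higher count was 0 without DM rat 3, normal rat 1 or normal rat 2, and the lower count was 0 without normal rat 2 and 2 without normal rat 3. Srf itself was at 4.79, 4.83 and 4.84 FPKM in the DM rats and at 5.46, 4.79 and 4.37 FPKM in the normal rats. Its log2 fold change was -0.011 (adjusted p = 0.994 from limma). Mkl1, a cofactor that carries actin signals to SRF, was at 6.41 FPKM in the DM and 6.71 FPKM in the normal rats as means of 3. Myocd, myocardin, stayed at or below 0.506 FPKM in every rat, and its mean of 0.346 FPKM was below the filter. These 3 genes were named for their role and not by the rule. Jag1, a Notch ligand, was lower at a log2 fold change of -0.52 (unadjusted p = 0.0155 from limma). Filip1l, a filamin A interacting protein, was higher at 0.23 (unadjusted p = 0.0373 from limma), with all DM rats above all normal rats, as in 4.56% of all genes tested.

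Markers of the cells that hold contractile genes and of their neighbours were compared in the same fit. The lists overlap, and 5 of the 10 contractile genes are also among the 19 peritubular myoid markers. Of the 16 myoid markers tested, 2 were lower and 0 were higher at an unadjusted p-value below 0.05, namely Col4a1, a basement membrane collagen, at a log2 fold change of -0.62, and Dcn, the matrix proteoglycan decorin, at -0.73, and neither is a contractile gene. All 10 vascular mural markers tested had a negative log2 fold change, a sign shown by 55.6% of all genes, and their median was -0.20. Rgs5, a pericyte regulator of G protein signalling, passed at -0.34 (unadjusted p = 0.0362 and adjusted p = 0.649 from limma), but its groups overlapped. The summed level of the 16 mural markers found was 17.9 to 20.2 FPKM in the DM rats and 21.8 to 24.5 FPKM in the normal rats, so that the sums did not overlap. No share over all genes was computed for such sums. Taken singly, 2 of the 10 markers tested were lower without overlap, beside 8.42% of all genes. Without DM rat 1, DM rat 3, normal rat 1 or normal rat 2, 0 mural markers had an unadjusted p-value below 0.05 from limma. Without normal rat 3 the median of the list was -0.41. Whether fewer mural cells had a part in the values of the contractile genes was not tested. Of 8 endothelial markers tested, 6 had a negative log2 fold change, and their median was -0.20. Of these 8, 1 was higher, Flt1, a receptor of vascular endothelial growth factor, at 0.83 (unadjusted p = 0.0168), and 0 were lower. The higher count was 0 without DM rat 3 or normal rat 3, and the lower count was 1 without DM rat 3 or normal rat 1.

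Many other interstitial markers were lower in the same DM rats, but not all of them. Of 9 fibroblast and stroma markers tested, 5 were lower and 0 were higher at an unadjusted p-value below 0.05. The median of the list was -0.52 on the log2 scale, with summed levels of 18.1 to 21.0 FPKM in the DM against 27.2 to 37.1 FPKM in the normal rats. Of 7 Leydig cell markers, 6 were lower with a median of -1.24, and Cyp17a1, an enzyme of testosterone synthesis, was the one with an adjusted p-value below 0.05. The marker that did not pass, Nr5a1, named outside the rule, was at -0.016. Of 12 macrophage markers, 7 were lower with a median of -0.81. The most abundant of them, Mrc1, at a mean of 21.2 FPKM over the 6 rats, was at -0.064 with overlapping groups (unadjusted p = 0.523 from limma). Sertoli cell markers had 0 of 11 in either direction and a median of 0.056, and spermatid markers had 0 of 14 in either direction and a median of -0.011. Under the alternatives Sertoli markers had 0 lower and 0 or 1 higher, and spermatid markers had 0 or 1 in each direction. Spermatogonia had 1 of 9 lower and 1 higher, and spermatocytes had 0 of 12 lower and 1 higher. The part of these shifts in the values of the contractile genes was not tested.

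**Figure D4:**
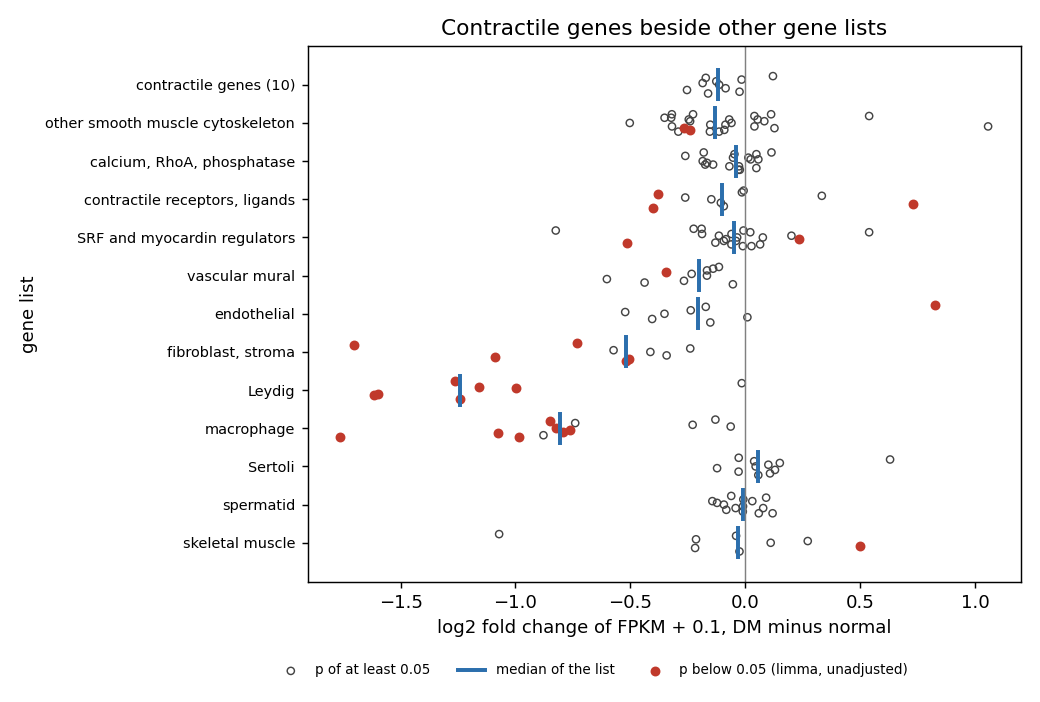
Log2 fold changes (DM minus normal, log2(FPKM + 0.1) scale) of the genes tested in 13 lists, filled red for an unadjusted limma p-value below 0.05, with a blue bar for the median of each list. The contractile genes lie between -0.25 and 0.12, whereas the medians of fibroblast, macrophage and Leydig markers are -0.52, -0.81 and -1.24.

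Contractile genes and interstitial markers were also set against each other as a ratio within each rat, using the gene with the lowest p-value in each of 3 lists. Acta2 was 25.8 to 38.0 times the level of Col3a1, a fibrillar collagen, in the DM rats and 9.50 to 10.9 times its level in the normal rats. Relative to Cyp17a1 it was at 3.67 to 3.81 times in the DM and 1.12 to 1.86 times in the normal rats. Relative to Cd74, the MHC class II invariant chain, it was at 7.85 to 10.8 times and 4.34 to 5.27 times. For Col3a1 and for Cyp17a1, the ratios of 10 of the 10 contractile genes were higher in every DM rat than in every normal rat, by 2.88 to 3.76 and 2.54 to 3.31 times, and so were those of 94.1% and 92.8% of all genes tested. For Cd74 this held for 9 of the 10 genes, all but Actg2, and for 82.3% of all genes. The contractile genes therefore stood to these markers as most genes of the testis did. The exact permutation p-value of each such ratio was 0.1, the smallest that is possible, and 0.103 after Benjamini-Hochberg adjustment over the 30 ratios. The 3 reference genes were taken because they differed in these rats, and the ratios to each share it.

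Tissue at the edge of a testis sample can add smooth or skeletal muscle. Of 17 skeletal muscle markers found in the table, 8 reached the filter, 1 was higher and 0 were lower. The one was Mylpf, a fast light chain, at a mean of 3.24 FPKM in the DM and 2.25 FPKM in the normal rats and a log2 fold change of 0.499 (unadjusted p = 0.016). That count was 0 among protein-coding genes and without DM rat 2 or normal rat 1. The most abundant were Casq1, calsequestrin of the muscle calcium store, at 3.34 to 4.44 FPKM over the 6 rats, Mylpf, and Actn3, an actinin of fast fibres, at 2.16 to 3.39 FPKM, levels near that of Des. At the other end, Tnni2 and Pvalb were listed at 0 FPKM in all 6 rats and Ckm, muscle creatine kinase, stayed at or below 0.247 FPKM, and these 3 genes were chosen after their values were seen. The summed level of the 17 markers was 14.4 to 17.5 FPKM in the DM and 14.6 to 17.2 FPKM in the normal rats. Of 10 epididymis markers, 3 were tested and 0 passed in either direction. The 3 were Cst8, a cystatin, at a mean of 95.5 FPKM over the 6 rats, Cuzd1 at 18.3 FPKM and Spint3 at 3.75 FPKM. Whether these 3 transcripts came from testis or from epididymis was not tested. Spint3 was at -0.96 on the log2 scale (adjusted p = 0.687 from limma), and the count of lower genes was 2 without normal rat 1 and 1 without DM rat 1. The other 7 had means below 0.5 FPKM, and Lcn8 and Defb1, also chosen after their values were seen, were listed at 0 FPKM in all 6 rats.

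Among 14979 other genes with a symbol and a mean of at least 1 FPKM, the genes whose log2 values over the 6 rats followed the mean profile of the contractile genes most closely were Pdia4, Ptgfrn, LOC100910944, C1galt1c1, Oat, Jade1, Vsig1, Nif3l1, AABR07014897.2 and Sepsecs, with Pearson correlations of 0.991 to 0.969. With 6 rats, 138 of the 14979 genes had a correlation above 0.9 and 84 had one below -0.9. The log2 fold changes of the 10 named genes lay between -0.25 and -0.026. The ranking rests on Actg2, the most variable contractile gene. With Actg2 left out of the profile, a setting chosen after seeing the data, 0 of these 10 genes were among the 10 most alike, and their correlations with the profile of the other 9 contractile genes were 0.814 to 0.949.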

How the data were processed

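RNA-Seq libraries of testis, 3 DM and 3 normal, were used, with groups and replicate numbers from the sample labels. The authors compared reads with rRNA sequences (BWA), aligned them with STAR and assembled transcripts with StringTie, and they deposited FPKM per gene. Versions, genome build, strand and the treatment of reads shared by paralogs are not given in the sources used here. The paper screened transcripts with DESeq2, which needs counts and was not run. Here log2(FPKM + 0.1) was fitted for 20338 genes, those whose mean over the rats reached 0.5 FPKM, with limma 3.58.1 (trend, two-sided) in R 4.3.3, and p-values were adjusted over all of them by Benjamini-Hochberg. Exact tests, shares and ratios were computed in Python 3.11.15. The protocol in the labels mentions both poly(A)+ and poly(A)- RNA, and adipose tissue, so the RNA selected is uncertain. The fits were checked on data with known changes.

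The contractile genes and the 17 other lists were chosen with earlier results of these data known, and the family shares and within-rat ratios after the values were seen. The rule for genes to name allowed, in each list, those with an unadjusted p-value below 0.05 (at most 6) and the 3 most abundant, besides counterparts of the contractile genes and the 10 genes most like them. Not all genes it allows are given, mainly in the marker lists of cells other than smooth muscle, and genes outside it are named as such. Values not analysed here include the small RNA libraries. A few listed symbols were not matched to a row.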

Additional observations from a re-analysis of the deposited data

How the results depend on the processing

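The 17 alternatives changed the pseudocount to 1 or 0.01, dropped the filter or raised it to 1 FPKM, rescaled values to TPM or by median ratios, used eBayes robustly or with no trend, took the replicate number as a block, kept protein-coding genes, summed rows of equal symbol, or left out 1 of the 6 rats. Of 169 values of the contractile genes, 155 kept their direction and stayed above an unadjusted p of 0.05, 12 changed sign and 2 passed (Acta2 and Myl9 without normal rat 3). The lowest adjusted p from limma was 0.504, and Lmod1 gave no value with the filter at 1 FPKM. With median-ratio scaling, which moved the median of all genes from -0.021 to 0.0079, the log2 fold change was 0.00353 for Tpm2 and 0.0103 for Lmod1. With each rat left out it ran from -0.576 to 0.291 for Actg2, from -0.206 to 0.131 for Tpm2, from -0.154 to 0.0975 for Lmod1 and from -0.056 to 0.275 for Tagln. In the same fits 0 to 2 contractile genes had an unadjusted p below 0.05 from limma, beside 1118 to 1572 of all 20338 genes. Contractile genes that were lower without overlap numbered 1 to 4, beside 12.6% to 15.8% of all genes. The cause was not tested.

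The median of the 10 genes ran from -0.18 to -0.060 with each rat left out. Of 867 values of the other lists, 777 stayed near the reported value and 90 moved. Lower stroma markers numbered 4 to 6, Leydig markers 5 to 6, macrophage markers 4 to 8, mural markers 0 to 3, cytoskeletal genes 0 to 5, receptors and ligands 1 to 2 and SRF regulators 0 to 2. Over all genes, 7 had an adjusted p below 0.05, against 12 with no trend, 3 with no filter, 36 among protein-coding genes, 15 with symbols summed, 4 with the replicate block and 0 to 11 with each rat left out. An unadjusted p below 0.05 and a log2 fold change of 1 or more in size held for 253 genes, against 621 with no filter, 85 among protein-coding genes and 91 with a pseudocount of 1. With the replicate block, 0 of the 10 genes had an unadjusted p below 0.05, and 1651 of all genes did, against 1517. Deviations of same-numbered rats correlated at 0.106, 0.0153 and 0.0979, and those of differently numbered rats at -0.126 to 0.0318. DM rat 2 correlated better with normal rat 3 than with its own number. The labels name no pairs and the main fit took none. Whether same-numbered rats share a batch was not tested. Depth in reads is unknown.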
